A study of Homo sapiens with 18 samples.

Results

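The small nucleolar RNA host genes examined here were 9 spliced non-coding genes, GAS5, SNHG1, SNHG5, SNHG6, SNHG8, SNHG12, SNHG15, SNHG16 and ZFAS1. They were listed by name, their Ensembl IDs were matched to symbols, and all 9 were found among the 60252 genes of the count table and among the 21326 genes with enough counts to be tested. The libraries came from MCF-10A, a human breast epithelial line of non-cancerous origin that lacks the oestrogen receptor, grown for 8 days as 3D structures in Matrigel, a basement membrane gel. The overexpression (OE) groups were cells of this line with a stably integrated retrovirus that held the coding sequence of a splicing regulator, and they are called SRSF2-OE, SRSF4-OE, SRSF6-OE, SRSF9-OE and TRA2B-OE. Control cells held the same vector, PWZL, with no insert, so every group was transduced. The promoter that drove the inserts is not named in the sources used here. The design asks how each OE group differed from Control.

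After sequencing lanes of a shared library ID were summed, SRSF2-OE and SRSF9-OE had 3 libraries and SRSF4-OE, SRSF6-OE, TRA2B-OE and Control had 2. A summed library is named by both replicate numbers, as in Control 1-2. The 14 libraries held 42959069 to 121601376 counts, and counts per member and library ran from 1007 to 37247, so counting error was small beside the spread between libraries. The introduced factor was not raised to the same degree everywhere. SRSF9 stood at 358, 629 and 839 CPM (counts scaled to library size by TMM) in SRSF9-OE, against 95.3 and 92.4 CPM in Control. SRSF4 stood at 187 and 168 CPM in SRSF4-OE, against 95.4 and 71.3 CPM in Control. SRSF6 stood at 417 and 283 CPM in SRSF6-OE, against 400 and 239 CPM in Control, and at 448 CPM in SRSF4-OE 1-2. The library SRSF2-OE 1 held 214 CPM of SRSF2, SRSF2-OE 2 held 396 and SRSF2-OE 3 held 310, against 176 and 204 CPM in Control. TRA2B-OE 1-2 held 201 CPM of TRA2B and TRA2B-OE 3 held 147, against 105 and 106 CPM in Control. SRSF4-OE held 158 and 168 CPM of TRA2B. Mitochondrial genes took 16.4% of counts in SRSF2-OE 1 and 14.3% in TRA2B-OE 3, while the other 12 libraries lay between 6.45% and 12%. Of the basal mammary markers, KRT5 was at 7080 to 20000 CPM and TP63 at 113 to 255 CPM in the 14 libraries. EGFR was at 520 to 1670 CPM, ITGA6 at 709 to 2650, CDH1 at 91.2 to 334 and EPCAM at 0.54 to 11.4. For the keratins KRT17 and KRT14 edgeR called no difference among the 6 groups (adjusted p = 0.357 and 0.394), though their levels lay apart in some groups. KRT17 was at 699 to 1600 CPM in SRSF2-OE, 2230 and 3340 in SRSF4-OE, 3980 and 5870 in SRSF6-OE, 732 to 6570 in SRSF9-OE, and 2030 and 784 in TRA2B-OE, all below the 6900 and 9780 CPM of Control. KRT14 was at 5170 to 7420 CPM in SRSF2-OE, 4970 and 6690 in SRSF4-OE, 5260 and 5630 in SRSF6-OE, 1710 to 4660 in SRSF9-OE, and 3080 and 1430 in TRA2B-OE, against 976 and 3440 CPM in Control. Their part in the host gene values was not tested. Of the markers of other cells, PGR, CDH5 and COL3A1 had at most 5 counts in any library, PTPRC and PDGFRA at most 0.436 CPM, ESR1 0.129 to 2.54 CPM and COL1A1 44 to 277 CPM, while PECAM1 was not matched by symbol.

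Small nucleolar RNAs (snoRNAs) guide methylation and pseudouridylation of ribosomal RNA, and most human snoRNAs are cut out of introns of host genes after splicing. In non-coding hosts the spliced exons have no long reading frame, enter the cytoplasm, engage ribosomes and are degraded by nonsense-mediated decay (NMD), so that their level responds to translation and NMD. Many of these hosts start at a 5′ terminal oligopyrimidine (TOP) tract, a C followed by a run of pyrimidines that they share with ribosomal protein genes, and GAS5 is the textbook case of a host that accumulates when growth or translation stops.

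The start regions of the hosts are shown because many of these hosts start at a TOP tract. Each line runs from 50 bases before the start site to 50 bases from it, in the direction of transcription, from RefSeq on GRCh38.p14. Capitals mark a C with at least 4 pyrimidines (C or T) after it that begins within 10 bases of the start, and the letters TATAA beginning 40 to 20 bases before it.
GAS5: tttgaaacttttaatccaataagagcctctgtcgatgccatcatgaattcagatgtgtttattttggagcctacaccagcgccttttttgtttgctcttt
SNHG1: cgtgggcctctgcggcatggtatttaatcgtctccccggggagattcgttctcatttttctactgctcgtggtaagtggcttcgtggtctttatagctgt
SNHG5: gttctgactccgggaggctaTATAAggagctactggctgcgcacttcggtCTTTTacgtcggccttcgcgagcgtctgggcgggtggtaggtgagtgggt
SNHG8: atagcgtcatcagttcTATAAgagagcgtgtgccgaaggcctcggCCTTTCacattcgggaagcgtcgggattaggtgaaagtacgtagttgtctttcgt
SNHG12: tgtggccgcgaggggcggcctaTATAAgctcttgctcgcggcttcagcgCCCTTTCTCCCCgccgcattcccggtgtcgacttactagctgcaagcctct
SNHG16: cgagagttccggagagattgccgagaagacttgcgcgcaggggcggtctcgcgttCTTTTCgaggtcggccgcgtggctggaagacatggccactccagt
ZFAS1: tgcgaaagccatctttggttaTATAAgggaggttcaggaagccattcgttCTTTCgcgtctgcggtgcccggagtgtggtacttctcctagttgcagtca

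These windows lie at chr1:173868996-173869095 for GAS5, chr11:62855836-62855935 for SNHG1, chr6:85678684-85678783 for SNHG5 and chr1:28581824-28581923 for SNHG12, all on the minus strand. On the plus strand they lie at chr4:118278712-118278811 for SNHG8, chr17:76557714-76557813 for SNHG16 and chr20:49278592-49278691 for ZFAS1. SNHG15 is named only, and SNHG6 is not shown. A pyrimidine tract was found in 5 of the 7 windows, those of SNHG5, SNHG8, SNHG12, SNHG16 and ZFAS1, and in 31.4% of all 35116 RefSeq start regions. TATAA was found in 4 of the 7, those of SNHG5, SNHG8, SNHG12 and ZFAS1, and in 3.91% of all start regions, with only the printed strand searched. The start site decides what such a window holds: RefSeq's start for GAS5 lies 163 bases upstream of the one in GENCODE release 29, outside this window, and for ZFAS1 464 and for SNHG12 1259 bases downstream of it. A match is a description of the letters, not of a site in use.

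None of the 9 host genes was called in any of the 5 comparisons with Control, in which 0% to 0.00938% of all tested genes were called higher and 0% lower. The largest differences were SNHG15, higher in SRSF6-OE and SRSF4-OE at log2 fold changes of 0.75 and 0.70, and ZFAS1, lower in TRA2B-OE at -0.72. GAS5 was lower and SNHG1 higher than Control on the fitted scale in all 5 comparisons. These comparisons share the same Control libraries, so a direction common to them is not 5 separate results. Log2 fold changes are from edgeR's quasi-likelihood test over all 14 libraries with the label set (a library ID or a plain number in the sample description) as a term, and p-values were adjusted by Benjamini-Hochberg over the 21326 genes.

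**Figure D1:**
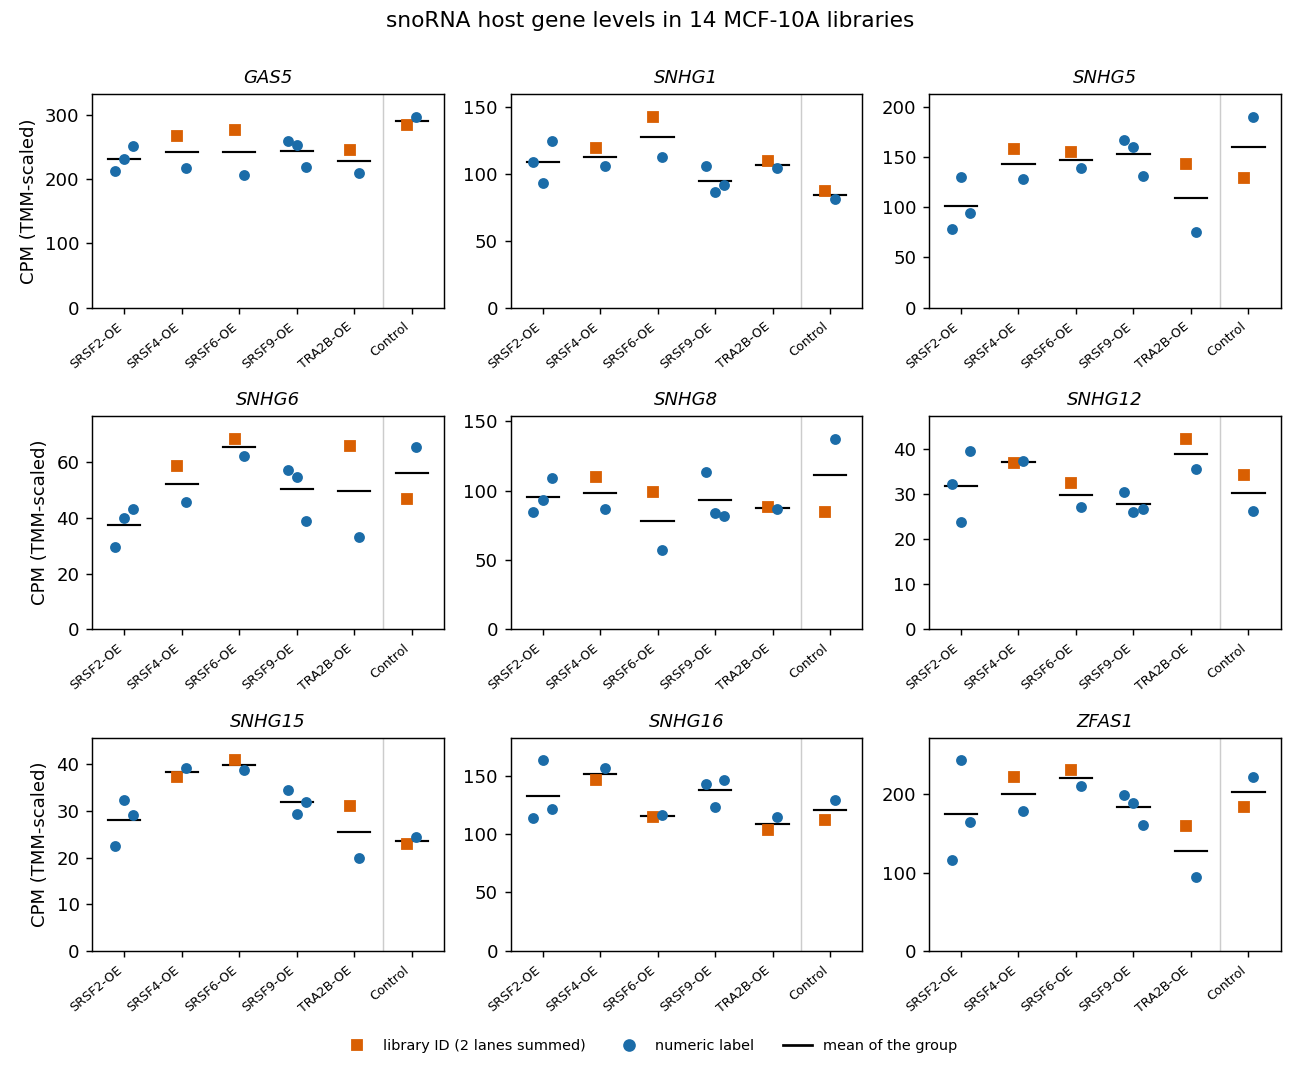
CPM (TMM-scaled, linear axis from 0) of the 9 snoRNA host genes in each of the 14 libraries by group, with squares for libraries whose description carries a library ID, circles for those with a numeric label, and a bar for the group mean. For GAS5 the 12 OE libraries lie at 207.6 to 277.5 CPM, under both Control libraries at 284.7 and 297.3 CPM.

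GAS5 (chr1:173863900-173868882 on GRCh38 in GENCODE release 29, minus strand), whose introns carry a cluster of C/D box snoRNAs, had 213.3, 231.5 and 252.7 CPM in SRSF2-OE, 267.1 and 218.2 in SRSF4-OE, 277.5 and 207.6 in SRSF6-OE, 259.8, 253.4 and 219.7 in SRSF9-OE, 246.5 and 209.8 in TRA2B-OE, and 284.7 and 297.3 in Control. All 12 OE libraries lay below both Control libraries, and the groups overlapped only among the OE groups. Over all tested genes, 3.87% lay below Control in this way and 4.31% above. GAS5 averaged 232.5 ± 19.7 CPM in SRSF2-OE (SD, n = 3), 242.6 ± 34.6 in SRSF4-OE (n = 2), 242.6 ± 49.4 in SRSF6-OE (n = 2), 244.3 ± 21.5 in SRSF9-OE (n = 3), 228.2 ± 25.9 in TRA2B-OE (n = 2) and 291 ± 8.9 in Control (n = 2). Its log2 fold changes were -0.22 ± 0.16 (SE) in SRSF2-OE, -0.28 ± 0.17 in SRSF4-OE, -0.28 ± 0.17 in SRSF6-OE, -0.15 ± 0.16 in SRSF9-OE and -0.36 ± 0.17 in TRA2B-OE, with edgeR adjusted p of 0.355 to 0.89. The mean of the 5 OE groups stood at -0.26 ± 0.13 (edgeR adjusted p = 0.342). Without Control 3 the values for SRSF2-OE and SRSF9-OE turned to 0.02 and 0.10 and the mean of the 5 to -0.04. SRSF2-OE and SRSF9-OE held numeric labels alone, and Control 1-2 a library ID. Without Control 3 their values, and in part the mean, thus rest on the label set term, estimated from the other OE groups. Every SRSF2-OE and SRSF9-OE library still lay below the 284.7 CPM of Control 1-2. In bulk RNA, fewer cells of a type and less RNA per cell cannot be told apart.

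SNHG1 (chr11:62851988-62855914, minus strand), host of SNORD22 and of the cluster that holds SNORD25 to SNORD30, differed in the other direction. It had 109, 92.7 and 124.3 CPM in SRSF2-OE, 119 and 105.7 in SRSF4-OE, 142.3 and 112.2 in SRSF6-OE, 106, 86.3 and 91.2 in SRSF9-OE, 109.5 and 104.1 in TRA2B-OE, and 86.98 and 81.01 in Control. Only 1 OE library, SRSF9-OE 2, fell inside the Control range. The log2 fold change was 0.59 ± 0.17 in SRSF6-OE (edgeR adjusted p = 0.167), 0.46 ± 0.17 in SRSF2-OE (adjusted p = 0.296), 0.42 ± 0.17 in SRSF4-OE (adjusted p = 0.304), 0.35 ± 0.17 in TRA2B-OE (adjusted p = 0.456) and 0.26 ± 0.17 in SRSF9-OE (adjusted p = 0.87), by edgeR's quasi-likelihood test. DESeq2 called SNHG1 in SRSF6-OE alone, at 0.62 ± 0.19 (adjusted p = 0.0326). SNHG1 was above Control in both label sets of every group that had both, by 0.33 to 0.71 with library IDs and 0.36 to 0.47 with numeric labels on the log2 CPM scale.

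SNHG15 (chr7:44983023-44986961, minus strand), which carries SNORA9, a guide of the H/ACA class, had 22.6, 32.3 and 29.1 CPM in SRSF2-OE, 37.4 and 39.2 in SRSF4-OE, 40.8 and 38.8 in SRSF6-OE, 34.6, 29.4 and 31.9 in SRSF9-OE, 31.1 and 19.8 in TRA2B-OE, and 22.8 and 24.4 in Control. The SRSF4-OE and SRSF6-OE libraries stood together at the top, above every library of the other 4 groups, and the next group, SRSF9-OE, also lay wholly above Control. SRSF2-OE and TRA2B-OE each had 1 library under both Control libraries, and these were SRSF2-OE 1 and TRA2B-OE 3. The log2 fold change was 0.75 ± 0.22 in SRSF6-OE (edgeR adjusted p = 0.168), 0.70 ± 0.22 in SRSF4-OE (adjusted p = 0.25), 0.50 ± 0.22 in SRSF9-OE (adjusted p = 0.87), 0.31 ± 0.21 in SRSF2-OE (adjusted p = 0.552) and 0.09 ± 0.22 in TRA2B-OE (adjusted p = 0.907). Without SRSF2-OE 1 and TRA2B-OE 3, the TRA2B-OE value was 0.41 (adjusted p = 0.393), again from edgeR. DESeq2 called SNHG15 in SRSF6-OE at 0.78 ± 0.26 (adjusted p = 0.048).

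SNHG12 (chr1:28578538-28583132, minus strand), host of SNORA16A, SNORA44, SNORA61 and SNORD99, had 42.4 and 35.7 CPM in TRA2B-OE and 37 and 37.5 in SRSF4-OE, against 34.4 and 26.3 in Control. Both groups lay above Control, at log2 fold changes of 0.37 ± 0.22 and 0.31 ± 0.22, while SRSF2-OE (23.8 to 39.6 CPM), SRSF6-OE (27.1 to 32.6) and SRSF9-OE (26.1 to 30.5) overlapped it. SNHG16 (chr17:76557766-76565348, plus strand), host of SNORD1A, SNORD1B and SNORD1C, had its highest group mean in SRSF4-OE, at 146.3 and 156.5 CPM, against 112.3 and 129.2 CPM in Control. That difference was 0.33 ± 0.18 (edgeR adjusted p = 0.41). The other SNHG16 values ran from 103.5 CPM in TRA2B-OE to 163 CPM in SRSF2-OE, on both sides of Control.

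**Figure D2:**
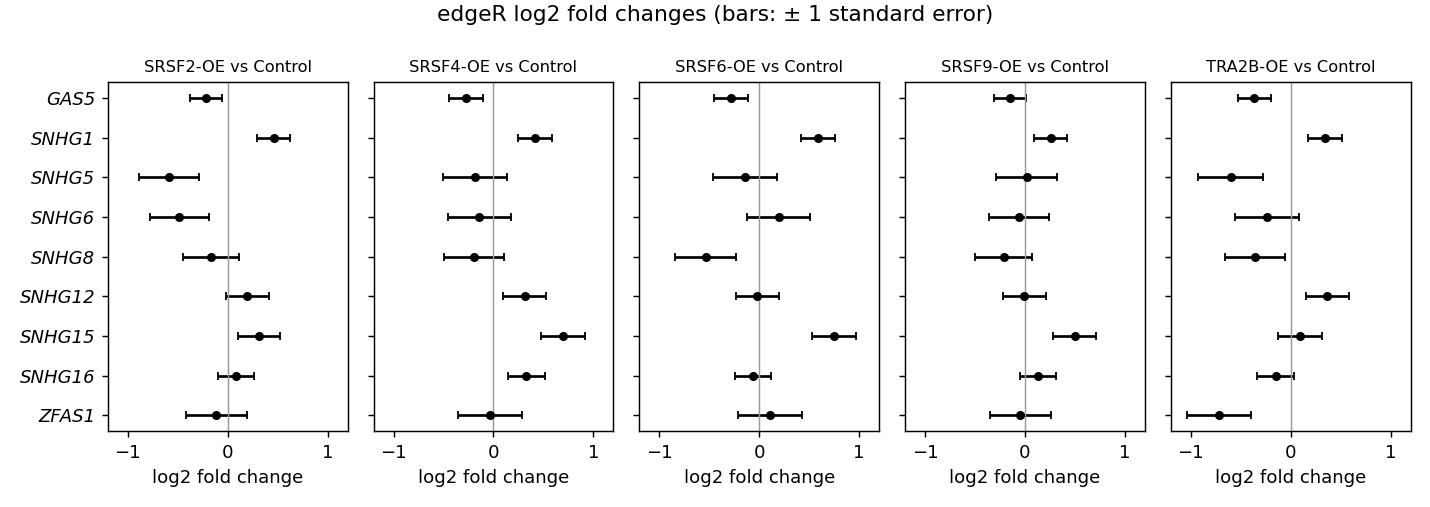
Log2 fold change of each of the 9 host genes in the 5 OE groups against Control, with bars of 1 standard error (edgeR, 14 libraries). SNHG1 is right of 0 and GAS5 left of 0 in all 5 panels, and SNHG15 in SRSF6-OE reaches 0.75 and ZFAS1 in TRA2B-OE -0.72.

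SNHG5, SNHG6, SNHG8 and ZFAS1 were the members whose libraries differed most within groups. SNHG5 (chr6:85660950-85678748, minus strand), host of SNORD50B, had 77.7, 130.4 and 93.6 CPM in SRSF2-OE, 157.3 and 128.3 in SRSF4-OE, 154.8 and 138.5 in SRSF6-OE, 167.1, 159.6 and 130.8 in SRSF9-OE, 142.9 and 75.3 in TRA2B-OE, and 129.4 and 189.5 in Control. The highest of the 14 was Control 3 and the lowest TRA2B-OE 3, and every OE group overlapped the Control range. Its log2 fold changes ran from -0.60 ± 0.33 in TRA2B-OE (edgeR adjusted p = 0.498) and -0.58 ± 0.30 in SRSF2-OE (adjusted p = 0.425) to 0.02 ± 0.30 in SRSF9-OE.

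SNHG6, host of SNORD87, had 29.5, 39.8 and 43.1 CPM in SRSF2-OE, 58.6 and 45.7 in SRSF4-OE, 68.4 and 62.2 in SRSF6-OE, 57.3, 54.5 and 38.9 in SRSF9-OE, 66 and 33.2 in TRA2B-OE, and 46.7 and 65.5 in Control. SRSF2-OE was the group wholly under Control (log2 fold change -0.48 ± 0.30, edgeR adjusted p = 0.501). SNHG8 (chr4:118278709-118279823, plus strand), host of SNORA24, had 84.7, 93.3 and 109.3 CPM in SRSF2-OE, 109.9 and 86.8 in SRSF4-OE, 99.1 and 57.3 in SRSF6-OE, 113.4, 84.1 and 81.8 in SRSF9-OE, 88.5 and 86.7 in TRA2B-OE, and 84.6 and 137.5 in Control. No group was separate from Control for SNHG8, and SRSF6-OE had its lowest log2 fold change at -0.54 ± 0.31 (edgeR adjusted p = 0.337). Control 3 was the higher Control library of SNHG5, SNHG6 and SNHG8, and without it their values for SRSF2-OE were 0.10, 0.18 and 0.57, against -0.58, -0.48 and -0.17 with it. SRSF2-OE held numeric labels alone, so without Control 3 these values rest on the label set term. Every SRSF2-OE library still lay below the 46.7 CPM of Control 1-2 for SNHG6, while for SNHG8 every one lay above its 84.6 CPM. Set against Control 3, which has a numeric label, SRSF2-OE differed on average by -0.947 log2 CPM for SNHG5, -0.824 for SNHG6 and -0.529 for SNHG8.

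ZFAS1 (chr20:49278178-49295738, plus strand), antisense to the start of ZNFX1 and host of the SNORD12 family, had 115.8, 243.4 and 164.6 CPM in SRSF2-OE, 222.7 and 179.3 in SRSF4-OE, 231.1 and 210.3 in SRSF6-OE, 199.1, 189.2 and 161.3 in SRSF9-OE, 159.9 and 94.4 in TRA2B-OE, and 184.2 and 221.5 in Control. TRA2B-OE was the only group that did not overlap Control, below it, at a log2 fold change of -0.72 ± 0.32 (edgeR adjusted p = 0.417). With TRA2B-OE 3 and SRSF2-OE 1 left out, that value was -0.39 (adjusted p = 0.586) and the one for SRSF2-OE moved to 0.04, against -0.11 with them. Without Control 3 the TRA2B-OE value of ZFAS1 was -0.37. Both left-out libraries are those with the highest mitochondrial share, and its part in these values was not tested.

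The members' counts are read beside the share of all tested genes. In SRSF2-OE against Control edgeR called 0 of 9 members, as it called 0% of all genes in either direction, and 1 member (SNHG1) had an unadjusted p under 0.05, against 7.02% of all genes higher and 6.33% lower. Every library lay above Control for 1 member and below for 2, against 16.7% and 17.5% of all genes. On the fitted scale 4 members were above 0 and 5 below, against 53% and 47% of genes, and DESeq2 called 0 members, against 1.28% of genes higher and 1.15% lower. In SRSF4-OE edgeR called 0 members (0% of genes), 2 (SNHG1 and SNHG15) passed unadjusted, all in the higher direction (7.05% of genes higher, 7.82% lower), and 4 lay above and 1 below Control without overlap (25.3% and 27.2%). Again 4 were above and 5 below 0 (46.9% and 53.1% of genes), and DESeq2 called 0 members (1.4% higher, 1.23% lower). In SRSF6-OE edgeR called 0 members against 0.00469% of genes higher and 0% lower, SNHG1 and SNHG15 passed unadjusted (10.4% higher, 9.1% lower), and 2 members lay above and 1 below (22.8% and 24.4%). Here too 4 were above and 5 below 0 (47.9% and 52.1% of genes), and DESeq2 called SNHG1 and SNHG15, where it called 4.03% of genes higher and 2.05% lower.

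In SRSF9-OE edgeR called 0 members (0% of genes), SNHG15 passed unadjusted (2.54% of genes higher, 1.93% lower), and SNHG15 lay wholly above and GAS5 wholly below Control (16.5% and 17.6%). The signs were 4 above and 5 below 0 (50.2% and 49.8% of genes), with 0 DESeq2 calls (0.0547% higher, 0.0137% lower). In TRA2B-OE edgeR called 0 members against 0.00938% of genes higher and 0% lower, 0 passed unadjusted (6.62% and 5.38%), and SNHG1 and SNHG12 lay above and GAS5 and ZFAS1 below (18.3% and 18.2%). The signs were 3 above and 6 below 0 (49.9% and 50.1% of genes), with 0 DESeq2 calls (1.32% higher, 0.887% lower). For the mean of the 5 OE groups edgeR called 0 members (0% of genes), with SNHG1 at 0.42 ± 0.14 and SNHG15 at 0.47 ± 0.18 passing unadjusted (7.65% higher, 8.31% lower), 4 members above and 5 below 0 (48.5% and 51.5%), and 0 DESeq2 calls (2.16% and 1.27%). The test for any difference among the 6 groups called 0 members (0.0422% of genes) and passed SNHG15 unadjusted (13.6%), and DESeq2 called 0 (7.02% of genes). The limma-voom fit called 0 members in each of these tests. The members' median log2 fold change beside that of all tested genes was -0.11 and 0.04 in SRSF2-OE, -0.04 and -0.04 in SRSF4-OE, -0.02 and -0.03 in SRSF6-OE, -0.01 and 0.00 in SRSF9-OE, and -0.24 and 0.00 in TRA2B-OE.

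When the 18 samples entered as separate replicates, lanes of a library included, edgeR called 1 member in SRSF2-OE (6.4% of all genes tested), 3 in SRSF4-OE (16.5%), 2 in SRSF6-OE (19.2%), 0 in SRSF9-OE (0.0238%) and 0 in TRA2B-OE (13.8%). It called 2 for the mean of the 5 groups (18.2%) and 2 for any difference among the 6 groups (17.7%). SNHG1 was among the called members in all 3 groups that had any. No label says that replicates were grown as separate cultures, and p-values then cover only library-to-library spread, possibly technical.

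Ordered by mean CPM, neighbouring groups rarely separated. The exceptions were SRSF9-OE (244.3 ± 21.5 CPM) and Control (291 ± 8.9) at the top of the GAS5 order, SRSF4-OE (38.26 ± 1.29 CPM) and SRSF9-OE (31.96 ± 2.58) for SNHG15, and for SNHG16 SRSF4-OE (151.4 ± 7.22) and SRSF9-OE (137.4 ± 12.7), and SRSF6-OE (115.5 ± 1.29) and TRA2B-OE (108.9 ± 7.69) (SD, with n = 2 except n = 3 in SRSF9-OE). Both SNHG16 gaps were narrow, with a lowest SRSF4-OE library of 146.34 CPM and a highest SRSF9-OE library of 146.26 CPM, and 114.55 CPM in SRSF6-OE beside 114.34 CPM in TRA2B-OE. In every other neighbouring pair the library values overlapped.

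The 4 groups with libraries of both label sets, SRSF4-OE, SRSF6-OE, TRA2B-OE and Control, allow each OE library to be set against the Control library of its own set. For SNHG5, SNHG6 and SNHG8 the OE library was above Control among libraries with library IDs and below Control among those with numeric labels, in 3 of 3 groups. The same holds for 3.1% of all tested genes. These 3 differences share their Control libraries, and Control 3 was high, with 189.5 CPM of SNHG5 against 129.4 in Control 1-2, 65.5 against 46.7 of SNHG6, and 137.5 against 84.6 of SNHG8.

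**Figure D3:**
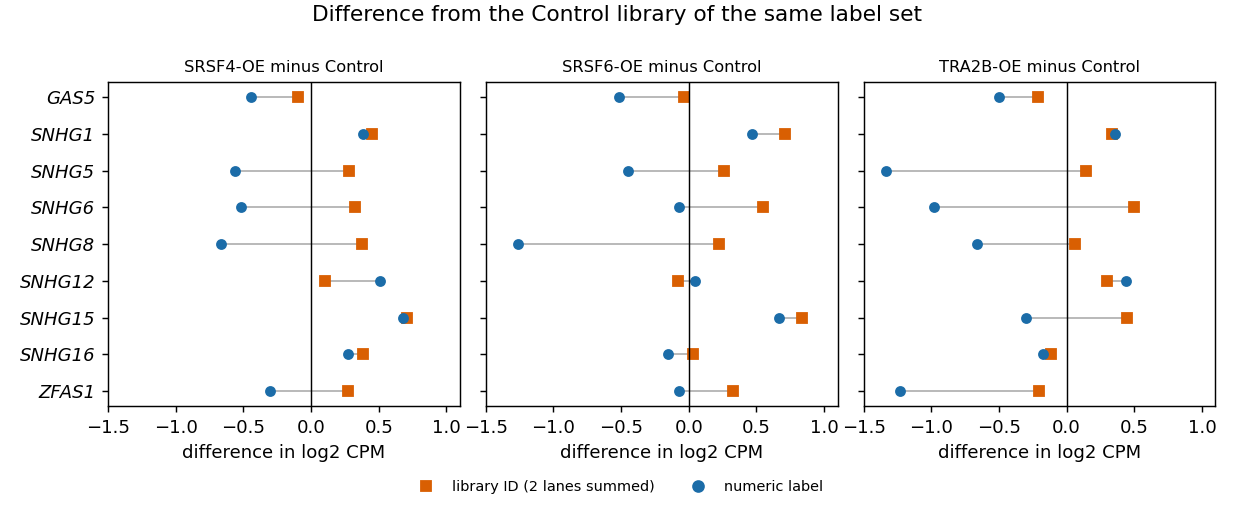
Difference in log2 CPM between an OE library and the Control library of the same label set, for SRSF4-OE, SRSF6-OE and TRA2B-OE, with squares for library IDs and circles for numeric labels, 1 library per point. SNHG5, SNHG6 and SNHG8 have squares right of 0 and circles left of 0 in all 3 panels, while GAS5 lies left of 0 and SNHG1 right of 0 with both symbols.

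A test of that difference, chosen after the values were seen, put the mean shift between label sets at 1.09 ± 0.35 log2 units for SNHG8, 1.01 ± 0.43 for SNHG5 and 0.98 ± 0.41 for SNHG6 (SE, edgeR adjusted p = 0.997 for each). All 3 passed at an unadjusted p under 0.05, as did 3.03% of genes in this direction and 1.58% in the other, and edgeR called 0% of genes after adjustment. The shift was below 0 for SNHG12 alone among the members and above 0 for 52.3% of genes. What the label sets stand for is not given in the labels. GAS5 was below Control in both sets, by 0.04 to 0.21 with library IDs and by 0.45 to 0.52 with numeric labels.

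The members also varied among themselves. Over the 14 libraries the SD of log2 CPM was 0.17 for GAS5, 0.21 for SNHG16, 0.23 for SNHG1, 0.26 for SNHG12, 0.29 for SNHG8, 0.33 for SNHG15, 0.39 for SNHG6, 0.39 for ZFAS1 and 0.40 for SNHG5, where the median tested gene of at least 5 CPM had 0.29. The ratio of the highest to the lowest library was 1.43 for GAS5 and 2.58 for ZFAS1. Averaged over the 9 members after each was centred, the lowest libraries were TRA2B-OE 3 at -0.35 and SRSF2-OE 1 at -0.32 log2 units, and the highest SRSF6-OE 1-2 and SRSF4-OE 1-2 at 0.24 each. In SRSF4-OE 1-2 all 9 members stood above their own mean, against 2 members in the library TRA2B-OE 3 and 2 in SRSF2-OE 1.

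The closeness of 2 profiles was measured as the root mean square difference of centred log2 CPM over the 14 libraries, a description with no test. Among members it was smallest between GAS5 and SNHG8 (0.21), SNHG5 and SNHG6 (0.21), SNHG5 and ZFAS1 (0.22) and SNHG1 and SNHG12 (0.22), and largest between SNHG5 and SNHG12 (0.53). GAS5 and SNHG1, on opposite sides of Control, were 0.29 apart. Of 10893 other genes with a mean of at least 5 CPM, those closest to the mean of the 9 members were NEPRO (0.10), UXT-AS1, KIAA1671, PARP11, RPL6P10, PHF13, ACTR8 and RPS23 (0.12), the last of which encodes a protein of the small ribosomal subunit. For single members the closest pairs of genes were TMEM14C and RPS18P5 for GAS5, UQCR11 and METTL3 for SNHG1, CAMLG and CTBS for SNHG5, NPM1P39 and RPS27AP16 for SNHG6, and RPL10AP6 and DPH5 for SNHG8. They were FLVCR1 and KLC1 for SNHG12, STK4 and TASP1 for SNHG15, TMEM131 and MESD for SNHG16, and SMIM26 and RPS21 for ZFAS1, RPS21 being another protein of the small ribosomal subunit. The values of these pairs ran from 0.08 for GAS5 to 0.18 for SNHG6. RPL6P10, RPS18P5, NPM1P39, RPS27AP16 and RPL10AP6 are pseudogenes whose reads cannot be parted with certainty from those of near-identical genes.

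The GAS5 level relative to SNHG1, both hosts of C/D box snoRNAs, was set out after their values were seen. GAS5 counts per SNHG1 count, not corrected for gene length, were 1.96, 2.5 and 2.03 in SRSF2-OE, 2.24 and 2.06 in SRSF4-OE, 1.95 and 1.85 in SRSF6-OE, 2.45, 2.94 and 2.41 in SRSF9-OE, 2.25 and 2.02 in TRA2B-OE, and 3.27 and 3.67 in Control. The ratio restates the GAS5 and SNHG1 values that led to its choice, so its separation of the 12 OE libraries from Control adds no support to them.

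Of the 33 snoRNAs listed for the members, 9 were matched to the table, and few counts were assigned to those 9. The libraries were made from mRNA, and whether this bears on the low counts was not tested. SNORD12B, inside ZFAS1, had 1.39, 1.69 and 1.39 CPM in SRSF2-OE, 1.53 and 1.96 in SRSF4-OE, 1.79 and 1.79 in SRSF6-OE, 1.22, 1.23 and 1.03 in SRSF9-OE, 1.26 and 0.748 in TRA2B-OE, and 0.711 and 0.569 in Control. All 12 OE libraries lay above both Control libraries, as they did for 4.31% of all tested genes, on 29 to 200 counts per library. Its log2 fold change was 1.48 ± 0.32 in SRSF6-OE and 1.46 ± 0.32 in SRSF4-OE, with edgeR adjusted p of 0.136 and 0.212, and DESeq2 called it there (adjusted p = 0.00245 and 0.00596) and in SRSF2-OE at 1.29 ± 0.36 (adjusted p = 0.0239). Its host ZFAS1 had log2 fold changes of 0.11 ± 0.32 in SRSF6-OE, -0.04 ± 0.32 in SRSF4-OE and -0.11 ± 0.31 in SRSF2-OE. Reads of the mature SNORD12B and of the host intron around it cannot be told apart in this table. SNORD99, inside SNHG12, had 0.194 to 1 CPM on 9 to 65 counts, and SNORD27, SNORD29, SNORD30, SNORD79 and SNORD12 were at 0 counts in all libraries.

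**Figure D4:**
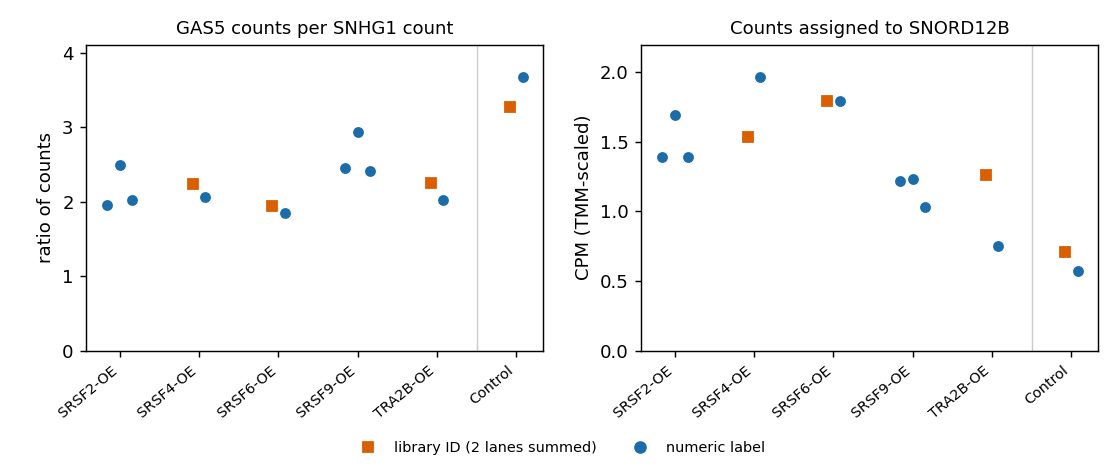
GAS5 counts per SNHG1 count (left, ratio axis from 0) and CPM of SNORD12B (right, linear axis from 0) in each of the 14 libraries by group, with squares for library IDs and circles for numeric labels. The ratio is 1.85 to 2.94 in the 12 OE libraries and 3.27 and 3.67 in Control, and SNORD12B is 0.748 to 1.96 CPM in the OE libraries and 0.711 and 0.569 CPM in Control.

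The other lists are read beside all tested genes, for which, in the order SRSF2-OE, SRSF4-OE, SRSF6-OE, SRSF9-OE and TRA2B-OE, 7.02%, 7.05%, 10.4%, 2.54% and 6.62% passed unadjusted higher and 6.33%, 7.82%, 9.1%, 1.93% and 5.38% lower. DESeq2 called 1.28%, 1.4%, 4.03%, 0.0547% and 1.32% of genes higher and 1.15%, 1.23%, 2.05%, 0.0137% and 0.887% lower. For 4.31% of all tested genes the 12 OE libraries all lay above both Control libraries, and for 3.87% below both. The genes named from each list were picked for large differences.

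Transcripts of the proteins that assemble snoRNAs into particles mostly had log2 fold changes above 0, and edgeR called none of them. Of the 15 tested genes of snoRNP proteins and assembly factors, 13 had a log2 fold change above 0 in SRSF2-OE, SRSF4-OE and SRSF6-OE each, 14 in SRSF9-OE and 15 in TRA2B-OE, against 46.9% to 53% of all tested genes. The groups are set against the same Control libraries, so these counts are not separate results. The list medians were 0.28, 0.43, 0.49, 0.31 and 0.34 in that order. In that order 6, 7, 7, 4 and 7 passed unadjusted, all higher, and DESeq2 called 1 in SRSF2-OE, 2 in SRSF4-OE, 3 in SRSF6-OE, 0 in SRSF9-OE and 1 in TRA2B-OE. NOP56, a core protein of C/D box particles that itself hosts snoRNAs, stood at 197 to 315 CPM in the 12 OE libraries, against 132 and 136 CPM in Control. Its log2 fold change was 1.06 ± 0.17 in SRSF2-OE, 1.19 ± 0.18 in SRSF4-OE, 0.94 ± 0.18 in SRSF6-OE, 0.67 ± 0.17 in SRSF9-OE and 0.86 ± 0.18 in TRA2B-OE, with a smallest edgeR adjusted p of 0.112, and DESeq2 called it in every group other than SRSF9-OE, with its smallest adjusted p, 3.21e-06, in SRSF4-OE. RUVBL2, an ATPase of the R2TP assembly complex, stood at 75.9 to 118 CPM in OE libraries, against 51.3 and 70.9 in Control. NOLC1, a nucleolar snoRNP chaperone, stood at 206 to 297 CPM in OE libraries, against 149 and 180 in Control.

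The other non-coding hosts, 19 of them tested, had 15, 16, 6, 11 and 11 genes above 0 in SRSF2-OE, SRSF4-OE, SRSF6-OE, SRSF9-OE and TRA2B-OE (53%, 46.9%, 47.9%, 50.2% and 49.9% of all genes), with medians of 0.34, 0.28, -0.12, 0.02 and 0.07. edgeR called 0 of them in each, 4, 2, 1, 2 and 1 passed unadjusted, all higher, and DESeq2 called 2, 1, 0, 0 and 1, all higher. SNHG3, host of SNORA73A and SNORA73B, stood at 50.2 to 81.7 CPM in OE libraries, against 47.3 and 44.1 in Control, and DESeq2 called it in SRSF2-OE (0.66, adjusted p = 0.0253) and TRA2B-OE (0.73, adjusted p = 0.0116). SNHG17, host of the SNORA71 family, stood at 16.3 to 32.4 CPM in OE libraries, against 17.3 and 13.4 in Control. CRNDE, a long non-coding RNA on the same list, stood lower, at 14.9 to 31.8 CPM in OE libraries, against 41.5 and 31.9 in Control.

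The 40 tested protein-coding hosts had medians between -0.01 and 0.20 in the 5 comparisons. edgeR called 0 of them, 2, 6, 8, 3 and 5 passed unadjusted higher and 1, 0, 1, 0 and 1 lower, and DESeq2 called 1, 3, 4, 0 and 2, all higher. Besides NOP56, the hosts of at least 5 CPM with the largest mean differences were HSPA8, a constitutive chaperone, and PPAN, a ribosome assembly factor. By symbol, RPL7A was matched to an ID with a mean of 0.316 CPM, at a log2 fold change of 3.76 in SRSF2-OE. DKC1 was matched to an ID with a mean of 0 CPM and was not tested, nor was RPL10, at a mean of 0.0365 CPM. Low means were also found for the IDs of RPL17 (11.1 CPM), RPL21 (11.2), EIF4A1 (12.9) and the NMD factor RBM8A (0.622). These were tested and enter the list values, and RPL17 and EIF4A1 are among those passing unadjusted higher in SRSF4-OE. Whether such IDs hold the main counts of these genes was not examined. HSPA8 stood at 1040 to 3490 CPM in OE libraries, against 643 and 1040 in Control, and PPAN at 5.32 to 7.75 CPM, against 4.16 and 3.41. Of the 19 NMD factors, 9, 9, 7, 8 and 11 lay above 0 in the same order of groups, with medians of -0.07 to 0.07. edgeR called 0 of them, 3, 1, 3, 0 and 1 passed unadjusted higher and 2, 3, 2, 0 and 3 lower, and DESeq2 called 1 in every group other than SRSF9-OE. XRN1, the 5′ to 3′ exonuclease that finishes decay, stood at 34.5 to 49.8 CPM in OE libraries, against 73 and 50.9 in Control, and DESeq2 called it in SRSF2-OE (-0.67, adjusted p = 0.0153), SRSF4-OE (-0.62, adjusted p = 0.0343) and TRA2B-OE (-0.65, adjusted p = 0.0238). SMG1, the kinase of UPF1, stood at 96.7 to 175 CPM in OE libraries, against 228 and 179, and SMG9, its partner, at 35 to 62 CPM, against 28.4 and 31. SMG9 was the factor DESeq2 called in SRSF6-OE (adjusted p = 0.00629).

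Other messengers known to be NMD targets, 9 of them tested, had medians of 0.39, 0.02, 0.49, 0.35 and 0.12 in SRSF2-OE, SRSF4-OE, SRSF6-OE, SRSF9-OE and TRA2B-OE. edgeR called 0 of them, 1, 0, 3, 0 and 0 passed unadjusted higher and 0, 2, 2, 0 and 0 lower, and DESeq2 called 1, DDIT3, lower in SRSF4-OE. UPP1, a uridine phosphorylase, stood at 9.59 to 89.3 CPM in OE libraries, against 8.06 and 11.3 in Control. GADD45B, a stress-induced gene, stood at 3.09 to 12.3 CPM, against 3.36 and 3.04. GABARAPL1, an autophagy protein, stood at 22 to 51.4 CPM, against 82.1 and 40.9. These 3 do not share a direction, and UPP1, GADD45B and GABARAPL1 each overlapped Control in some OE library.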

How the data were processed

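Per the labels' protocols, structures were taken out of Matrigel for RNA, and the libraries were stranded, made from mRNA and read from both ends. The authors deposited whole-number counts per gene for 18 samples, with no normalisation. Per the submitters' processing notes, which state no order, the build was GRCh37 and the tools included featureCounts, Subread, STAR 2.5.1b and Trimmomatic 0.36. The strand setting used in counting is not stated in these sources, so reads of overlapping genes on the other strand may be mixed in. In GENCODE release 29 such exon overlap included 1639 bases for SNHG16 (AC015802.6), 365 for SNHG6 (MCMDC2), 249 for ZFAS1 (ZNFX1), 42 for GAS5 (GAS5-AS1) and 8 for SNHG12 (TRNAU1AP), and positions given in the text are on GRCh38 from that release, not converted from GRCh37. By ID, 55910 of 60252 genes were named.

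Samples sharing a library ID were summed, since lane pairs differed by a mean chi-square of 3.82 to 9.06 per gene, against 58.8 to 318 for other pairs of a group. This left 14 libraries. The lane pairs still differed by more than counting noise alone. R 4.3.3 with edgeR 4.0.16 (TMM, filterByExpr with a minimum count of 10, quasi-likelihood test, group and label set as terms, 7 residual degrees of freedom, common biological coefficient of variation 0.318) tested 21326 genes, and calls were at a Benjamini-Hochberg adjusted p under 0.05. Labelling by library ID or by number is the label set. DESeq2 1.42.0 (unfiltered counts, its own filtering), limma 3.58.1 with voom, other size factors, no filter, no label set, a replicate block, the 18 samples, the libraries of 2 groups alone and leaving out libraries were alternatives. The edgeR script was tested on simulated data. CPM are TMM-scaled, and log2 CPM use a prior count of 2. The members, lists and tests were chosen with earlier results of these data known. The genes named from each other list were up to 3 with the largest absolute value of the mean log2 fold change over the 5 comparisons and at least 5 CPM. The snoRNAs named were those with at least 0.5 CPM. Replicate numbers were not taken to pair samples.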

Additional observations from a re-analysis of the deposited data

Results flagged for a closer look

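Each of the following differences was picked out because a single OE library of each label set lay on opposite sides of the Control library of its own set. The values are the OE minus Control difference in log2 CPM among libraries with library IDs minus that among libraries with numeric labels. The comparisons share the same Control libraries, Control 1-2 and Control 3, and single differences were not tested. For SNHG5 the value was 0.845 in SRSF4-OE (0.282 with library IDs, -0.563 with numeric labels), 0.711 in SRSF6-OE (0.259 and -0.452) and 1.476 in TRA2B-OE (0.144 and -1.332). For SNHG6 it was 0.846 in SRSF4-OE (0.327 and -0.519), 0.625 in SRSF6-OE (0.551 and -0.074) and 1.477 in TRA2B-OE (0.498 and -0.979). For SNHG8 it was 1.04 in SRSF4-OE (0.377 and -0.663), 1.49 in SRSF6-OE (0.227 and -1.263) and 0.73 in TRA2B-OE (0.065 and -0.665). ZFAS1 had 0.578 in SRSF4-OE and 0.402 in SRSF6-OE, SNHG15 had 0.748 in TRA2B-OE, SNHG16 had 0.178 in SRSF6-OE, and SNHG12 had -0.124 in SRSF6-OE, the sole negative value. Among members, the same sides were taken in all 3 groups by SNHG5, SNHG6 and SNHG8. No group had 4 or more libraries, so single libraries were not examined as outliers within a group.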

How the results depend on the processing

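0 members were called in each comparison by edgeR with TMM or DESeq2 size factors, with or without the filter on low counts or the label set term, by limma-voom, and by edgeR without any 1 library or without SRSF2-OE 1 and TRA2B-OE 3 together. The choice of replicates and tool changed that: with 18 samples as separate replicates edgeR called 1 in SRSF2-OE (SNHG1), 3 in SRSF4-OE (SNHG1, SNHG15 and SNHG16), 2 in SRSF6-OE, 2 for the mean of the 5 groups and 2 for any difference among the 6 groups, all from SNHG1 and SNHG15 in the last 3. DESeq2 called 2 in SRSF6-OE, and a fit of the libraries of SRSF4-OE and Control alone called 1 (SNHG15). Over all genes, the 14-library fit called 0, 0, 1, 0 and 2 in SRSF2-OE, SRSF4-OE, SRSF6-OE, SRSF9-OE and TRA2B-OE, the 18 samples 1345, 3465, 4030, 5 and 2897, and DESeq2 458, 557, 1146, 15 and 433. The fit of each pair of groups alone called 0, 2504, 156, 1 and 0 of all genes, and the fit without SRSF2-OE 1 and TRA2B-OE 3 46, 88, 48, 0 and 2. Replicate numbers were not taken to pair samples. Over 31 same-numbered pairs the correlation of deviations was -0.42 to 0.494 and 16 were over 0.1. In groups of 2 libraries the deviations mirror each other, and no pairs of different numbers were set beside these. The values thus cannot decide whether the numbers pair samples. The replicate block in place of the label set called 0 members and 0 of all genes in each of the 5 comparisons. Signs turned, none at a call, for ZFAS1 in SRSF2-OE without SRSF2-OE 1 and TRA2B-OE 3 (0.039), and in the 18 samples for SNHG6 (0.034), SNHG8 (0.013) and ZFAS1 (0.088) in SRSF4-OE, SNHG6 (0.062) and ZFAS1 (0.044) in SRSF9-OE and SNHG6 in TRA2B-OE (0.012). With the libraries of 2 groups alone they turned for ZFAS1 in SRSF4-OE (0.006) and for SNHG5 (-0.313) and SNHG12 (0.083) in SRSF9-OE, and SNHG12 in SRSF6-OE turned with DESeq2 size factors (0.005) and DESeq2 (0.012). SNHG5 in SRSF9-OE also turned without the label set term (-0.064), with the replicate block (-0.201) and without SRSF2-OE 1 and TRA2B-OE 3 (-0.073), SNHG12 in SRSF9-OE with the replicate block (0.002), and SNHG6 in TRA2B-OE without those 2 libraries (0.223). Leaving out 1 library at a time turned the sign of these log2 fold changes against Control in SRSF2-OE, from -0.354 to 0.024 for GAS5, -0.916 to 0.098 for SNHG5, -0.806 to 0.178 for SNHG6, -0.52 to 0.567 for SNHG8, -0.095 to 0.179 for SNHG16 and -0.43 to 0.328 for ZFAS1. In SRSF4-OE, the ranges were -0.61 to 0.371 for SNHG5, -0.553 to 0.401 for SNHG6, -0.654 to 0.405 for SNHG8 and -0.317 to 0.324 for ZFAS1. In SRSF6-OE, the ranges were -0.58 to 0.422 for SNHG5, -0.229 to 0.746 for SNHG6, -1.031 to 0.046 for SNHG8, -0.12 to 0.113 for SNHG12, -0.122 to 0.005 for SNHG16 and -0.189 to 0.472 for ZFAS1. In SRSF9-OE, the ranges were -0.277 to 0.098 for GAS5, -0.307 to 0.701 for SNHG5, -0.376 to 0.604 for SNHG6, -0.555 to 0.529 for SNHG8, -0.138 to 0.089 for SNHG12 and -0.267 to 0.399 for ZFAS1. In TRA2B-OE, the ranges were -0.733 to 0.275 for SNHG6, -0.816 to 0.257 for SNHG8 and -0.245 to 0.406 for SNHG15. The highest value of most came without Control 3, so these directions rest on 2 Control libraries. For SRSF2-OE and SRSF9-OE, which have numeric labels alone, the fit without Control 3 reaches Control 1-2 only through the label set term. The cause was not tested. SNHG1 kept its sign in all alternatives run, and so did SNHG15 outside TRA2B-OE. The test of the difference between label sets called 0 members with DESeq2 size factors, no filter or limma-voom, alternatives chosen after the data were seen.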

Other observations

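Lanes of a shared library ID were taken as 1 library. If that reading holds, their spread leaves out culture and library preparation. Between the 2 lanes, member CPM differed by 0.0659% to 15.8%, and the largest differences were in Control 1-2, for SNHG15 (24.29 and 20.74 CPM) and SNHG16 (118.2 and 103.8 CPM). GAS5 differed by 1.84% to 4.96% between lanes.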
